A study of Homo sapiens with 19 samples.

Results

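The expression of 10 transcription factors that act in the making of blood, RUNX1, TAL1, LMO2, GATA1, GATA2, GFI1, GFI1B, ETV2, FLI1 and ERG, was followed by RNA-seq in H1 human embryonic stem cells (hESCs), an established cell line, and in lines derived from them that lack subunits of Polycomb repressive complex 2 (PRC2). The 10 genes were taken by symbol from the 33382 genes listed for each sample, and all 10 were listed in each of the 19 samples. There were 2 samples of the parental WT H1 and 2 of each knockout, that is of SUZ12-/- H1, of EED-/- H1, of both single catalytic knockouts (EZH1-/- H1, EZH2-/- H1) and of the double knockout EZH2-/-/EZH1-/- H1. H1-EED-/-/EED-OE cells, in which the endogenous EED was deleted in cells that carry a lentiviral EED construct switched on by doxycycline (DOX), had 1 sample with DOX, whose title also carries D28, and 1 sample at each of days 8, 12, 16, 20, 24 and 28 after DOX was withdrawn. Levels are transcripts per 1000000 (TPM), which are scaled by transcript length and can therefore be compared between genes, and read depths are unknown.

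EED and SUZ12 are needed for PRC2 to methylate histone H3 at lysine 27, and EZH1 and EZH2 are its alternative catalytic subunits, so the lines without EED, without SUZ12 or without both catalytic subunits are referred to as the 3 PRC2-null lines, and the parental line with the single EZH1 and EZH2 knockouts as the 3 retaining lines. Within a knockout line the samples are labelled with different clones or passages, the labels do not say whether the samples of WT H1 were separate cultures, and p-values measure only the spread between these samples. Each targeting removed a domain of the gene, so the level of its RNA does not check a deletion. EED was at 14.2 and 22.4 TPM in EED-/- H1 cells, against 17.3 and 21.96 TPM in WT H1. In H1-EED-/-/EED-OE cells EED was at 109 TPM with DOX and at 12.6 to 31.6 TPM on the 6 days without it. A list of 8 pluripotency genes had a summed level of 5921 to 7125 TPM in the 6 retaining samples and of 182 to 491 TPM in the 6 PRC2-null samples.

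In the embryo the first blood stem cells bud from a specialised endothelium, and the factors studied here act along that path. ETV2 acts early and briefly in mesoderm to set up endothelial and blood precursors, and TAL1, the adaptor LMO2 and GATA2 work together on DNA with the ETS factors FLI1 and ERG in both endothelial cells and blood progenitors. RUNX1 is required for blood cells to leave the endothelium, GFI1 and GFI1B are repressors that shut off endothelial genes in that step, and GATA1 drives red cells and platelets. In bulk RNA, fewer cells of a type and less RNA per cell cannot be told apart.

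In GENCODE release 44 on GRCh38, RUNX1 is at chr21:34787801-36004667 and ERG at chr21:38380027-38661780, both on the minus strand, and TAL1 is at chr1:47216290-47232225 and GFI1 at chr1:92473043-92486925, also on the minus strand. LMO2 is at chr11:33858576-33892076 on the minus strand, and FLI1 lies on the same chromosome at chr11:128686535-128813267 on the plus strand. GATA2 is at chr3:128479427-128493201 on the minus strand, GFI1B at chr9:132944000-132991687, ETV2 at chr19:35641745-35644871 and GATA1 at chrX:48786540-48794311, the last 3 on the plus strand. Exons of 4 of the 10 genes overlap exons of a gene on the opposite strand, namely GATA2 (GATA2-AS1), TAL1 (ENSG00000226252), GFI1B (TSC1) and FLI1 (SENCR and ENSG00000245008). Counting by strand is not given in the sources used here, so reads from these stretches may belong to either gene.

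RefSeq promoter sequences, which run from 250 bases before to 50 bases after a transcript start, were at hand for 8 of the 10 factors on GRCh38.p14, and neither LMO2 nor FLI1 was among them. PRC2 is known to be recruited to stretches rich in CpG, so the CpG dinucleotides are in capitals, and the sequences are shown for 4 factors that rose in the PRC2-null lines and for GATA1 and GFI1B, which were near 0 throughout. They are the first-listed promoters of RUNX1 (chr21:34888650-34888949, minus strand), TAL1 (chr1:47232286-47232585, minus strand), GATA2 (chr3:128493152-128493451, minus strand), ERG (chr21:38660618-38660917, minus strand), GATA1 (chrX:48786340-48786639, plus strand) and GFI1B (chr9:132945281-132945580, plus strand), each written 5′ to 3′ on the strand of the gene.
RUNX1: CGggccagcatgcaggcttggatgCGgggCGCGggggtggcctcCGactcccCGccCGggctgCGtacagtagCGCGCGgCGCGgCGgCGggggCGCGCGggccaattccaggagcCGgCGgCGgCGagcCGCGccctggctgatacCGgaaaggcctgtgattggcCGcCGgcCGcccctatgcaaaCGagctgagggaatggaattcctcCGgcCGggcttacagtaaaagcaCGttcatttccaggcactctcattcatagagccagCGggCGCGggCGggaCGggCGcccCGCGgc
TAL1: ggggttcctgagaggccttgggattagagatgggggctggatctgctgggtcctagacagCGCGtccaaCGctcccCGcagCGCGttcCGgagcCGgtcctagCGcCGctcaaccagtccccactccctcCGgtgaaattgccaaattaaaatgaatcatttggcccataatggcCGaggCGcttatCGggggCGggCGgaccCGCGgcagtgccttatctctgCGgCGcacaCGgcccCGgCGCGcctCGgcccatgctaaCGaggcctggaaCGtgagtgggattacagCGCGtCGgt
GATA2: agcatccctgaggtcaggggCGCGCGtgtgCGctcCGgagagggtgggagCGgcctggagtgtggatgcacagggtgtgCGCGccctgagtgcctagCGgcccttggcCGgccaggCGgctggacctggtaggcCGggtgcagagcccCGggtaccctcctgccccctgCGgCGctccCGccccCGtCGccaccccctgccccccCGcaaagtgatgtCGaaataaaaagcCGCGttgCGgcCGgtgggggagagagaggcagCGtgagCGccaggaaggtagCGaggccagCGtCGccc
ERG: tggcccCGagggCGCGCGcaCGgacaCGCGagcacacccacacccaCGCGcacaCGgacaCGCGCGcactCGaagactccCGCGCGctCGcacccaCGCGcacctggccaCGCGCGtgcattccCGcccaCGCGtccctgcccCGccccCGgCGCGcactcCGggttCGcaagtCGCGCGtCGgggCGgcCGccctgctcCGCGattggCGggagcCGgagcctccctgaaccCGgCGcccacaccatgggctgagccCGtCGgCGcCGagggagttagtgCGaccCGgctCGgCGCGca
GATA1: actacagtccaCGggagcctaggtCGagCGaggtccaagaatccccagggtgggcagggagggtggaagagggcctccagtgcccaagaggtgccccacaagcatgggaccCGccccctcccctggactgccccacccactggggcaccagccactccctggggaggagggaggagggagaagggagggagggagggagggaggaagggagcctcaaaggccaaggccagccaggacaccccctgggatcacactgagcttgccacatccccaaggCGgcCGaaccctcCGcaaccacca
GFI1B: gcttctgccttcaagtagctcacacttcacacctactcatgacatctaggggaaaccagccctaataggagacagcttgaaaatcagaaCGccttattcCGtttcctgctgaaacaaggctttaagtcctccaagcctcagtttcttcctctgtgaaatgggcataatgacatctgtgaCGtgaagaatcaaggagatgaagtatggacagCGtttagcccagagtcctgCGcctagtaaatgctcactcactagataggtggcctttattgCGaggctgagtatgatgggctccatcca

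The first-listed promoters fell into a CpG-rich and a CpG-poor set. ERG had 53 CpG dinucleotides in its 300 bases, and 0.604% of all 35116 RefSeq promoters had as many. RUNX1 had 40 (7.61% of all promoters had as many), TAL1 had 30 (22.4%), GATA2 had 29 (24.2%) and GFI1 had 27 (28.2%). ETV2 had 9, GATA1 had 7 and GFI1B had 6, below the median of 14 over all promoters. The 5 CpG-rich promoters belong to factors whose 6 PRC2-null samples all lay above the 6 retaining samples, described next, and the 3 CpG-poor ones to factors whose samples overlapped. This is a description of 8 genes, chosen for their role in blood with earlier results of these data known. GFI1, GATA1 and GFI1B among them were too low to be tested. CpG counts were not compared over all genes whose samples did not overlap. Other listed starts differ: the 3 later-listed promoters of ERG had 4 CpG each. Gene-level TPM does not tell which start was used. Short matches on both strands to the letters that these factors bind were also counted in the first-listed promoters. The promoter of TAL1 held 2 matches to GATAA, and that of ETV2 held 1, a match present in 22.7% of all promoters. Matches to CCGGAA, a core of ETS sites found in 17.2% of promoters, occurred once each in those of TAL1, GFI1, ETV2 and RUNX1. ETV2 held 2 matches to CAGCTG, an E-box (17.9% of promoters), and no first-listed promoter of the 8 held TGTGGT, a core of RUNX sites (13.1% of promoters). No motif contains another.

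RUNX1, TAL1, LMO2, GATA2, FLI1 and ERG were at low levels in the 3 retaining lines and at much higher levels in the 3 PRC2-null lines. GATA1 and GFI1B were at or near 0 in both, GFI1 was higher in the PRC2-null lines but stayed below 1 TPM, and ETV2 was at a similar low level in both. In each of the first 6 genes, and in GFI1, every PRC2-null sample lay above every retaining sample. Of the 10 factors, 7 reached a TPM of 1 in at least 2 of the 12 samples and were tested (all but GATA1, GFI1 and GFI1B). Among these 7, the PRC2-null samples all lay above the retaining samples in 6, beside 24.2% of the 19100 genes tested. With a gap of at least 2-fold on TPM + 1 required between the groups, 5 factors lay higher in this way, beside 7.51% of all genes. LMO2 had the highest median over the 6 PRC2-null samples, 44 TPM, followed by RUNX1 at 25.9, GATA2 and FLI1 at 21.2 each, ERG at 17.7, TAL1 at 6.12 and ETV2 at 1.02 TPM. Each of these factors overlapped its neighbour in this order in its range over the samples, apart from TAL1 and ETV2, whose ranges of 4.20 to 8.68 and 0.61 to 4.30 TPM overlapped only between 4.20 and 4.30 TPM. In the retaining samples LMO2 was again highest with a median of 2.27 TPM, ahead of ERG at 1.81 and ETV2 at 1.44 TPM, and the other 7 had medians of 0.33 TPM or lower.

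**Figure D1:**
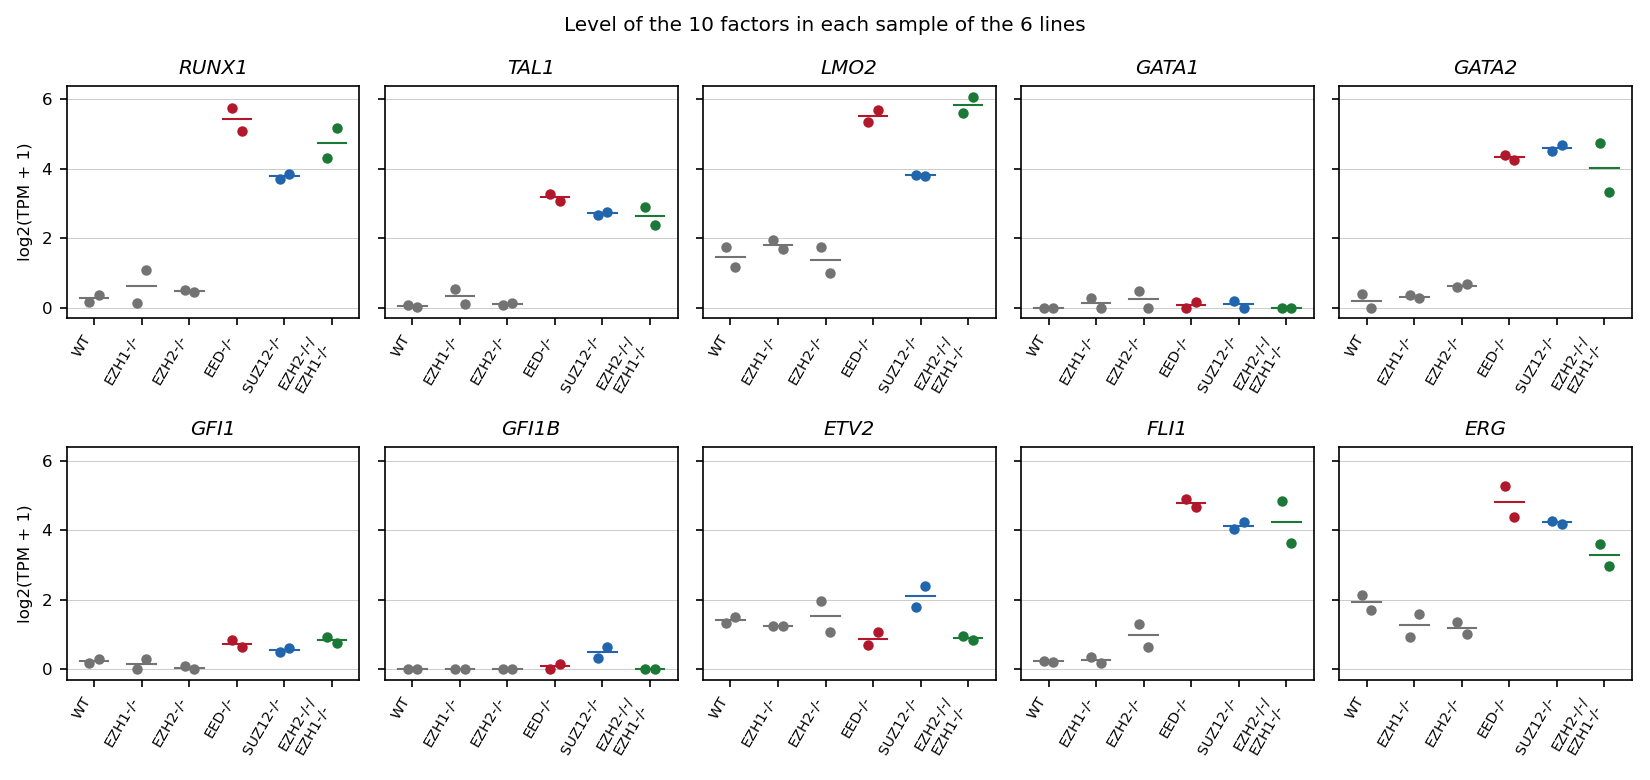
Level of the 10 factors as log2(TPM + 1) in each of the 12 samples of the 6 lines, 1 panel a gene, with points for samples and short lines for the mean of 2 samples. The PRC2-null lines (red, blue and green) lie above the retaining lines (grey) without overlap in RUNX1, TAL1, LMO2, GATA2, GFI1, FLI1 and ERG, and GATA1 and GFI1B lie near 0 in all lines.

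RUNX1 was at 0.12 and 0.29 TPM in WT H1, 0.10 and 1.12 TPM in EZH1-/- H1 and 0.41 and 0.37 TPM in EZH2-/- H1 cells. It was at 52.9 and 33.1 TPM in EED-/- H1, 12.1 and 13.5 TPM in SUZ12-/- H1 and 18.7 and 35.0 TPM in EZH2-/-/EZH1-/- H1 cells. The lowest PRC2-null sample was thus over 10 TPM above the highest retaining one. Against WT H1, on the log2(TPM + 1) scale, RUNX1 rose by 5.16 ± 0.39 (SE) in EED-/- H1 (limma, adjusted p = 2.77e-06), by 3.52 ± 0.39 in SUZ12-/- H1 (adjusted p = 3.84e-05) and by 4.47 ± 0.39 in EZH2-/-/EZH1-/- H1 cells (adjusted p = 1.05e-05). Here and below, the fit pooled the spread of a gene over all lines, so an SE is not the precision of a single line. Its level was lowest in SUZ12-/- H1 cells, but no difference between PRC2-null lines passed the thresholds. RUNX1 in SUZ12-/- H1 was 1.64 ± 0.39 below EED-/- H1 in log2, with an adjusted p of 0.0143.

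The 3 factors of the TAL1 complex rose with RUNX1. TAL1, a helix-loop-helix factor, was between 0.02 and 0.46 TPM in the 6 retaining samples, at 8.68 and 7.42 TPM in EED-/- H1, 5.34 and 5.77 TPM in SUZ12-/- H1, and 6.47 and 4.20 TPM in EZH2-/-/EZH1-/- H1 cells. It was the least abundant of the 6 factors that rose, and its 3 PRC2-null lines lay close together. The log2 fold change of TAL1 against WT H1 was 3.12 ± 0.28 (SE, adjusted p = 7.00e-06) in EED-/- H1, 2.66 ± 0.28 (adjusted p = 2.29e-05) in SUZ12-/- H1 and 2.59 ± 0.28 (adjusted p = 3.63e-05) in EZH2-/-/EZH1-/- H1 cells.

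LMO2, which bridges TAL1 and GATA factors, differed among the PRC2-null lines. LMO2 was at 2.34 and 1.27 TPM in WT H1, 2.84 and 2.19 TPM in EZH1-/- H1, and 2.37 and 1.00 TPM in EZH2-/- H1 cells. It was at 40.0 and 50.5 TPM in EED-/- H1, 13.2 and 12.8 TPM in SUZ12-/- H1, and 48.0 and 66.8 TPM in EZH2-/-/EZH1-/- H1 cells. Both samples of SUZ12-/- H1 thus lay far below those of the other PRC2-null lines and still above every retaining sample. The log2 fold changes against WT H1 were 4.06 ± 0.33 (SE, adjusted p = 3.93e-06), 2.35 ± 0.33 (adjusted p = 0.000182) and 4.39 ± 0.33 (adjusted p = 3.59e-06) in the lines without EED, without SUZ12 and without both catalytic subunits. LMO2 in SUZ12-/- H1 was 1.71 ± 0.33 below EED-/- H1 in log2 (adjusted p = 0.00429) and 2.04 ± 0.33 below EZH2-/-/EZH1-/- H1 (adjusted p = 0.00206).

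GATA2, a factor of blood stem and progenitor cells, was at 0.31 TPM and listed at 0 in the 2 samples of WT H1, and at 0.20 to 0.59 TPM in EZH1-/- H1 and EZH2-/- H1 cells. It was at 20.2 and 18.0 TPM in EED-/- H1, 22.1 and 24.5 TPM in SUZ12-/- H1, and 26.0 and 8.99 TPM in EZH2-/-/EZH1-/- H1 cells. The samples of EZH2-/-/EZH1-/- H1 held both the highest and the lowest of the 6 PRC2-null values, and these were also the replicates that differed most over the genes at 10 TPM or more in both samples of a line, by a median of 0.46 in log2, against 0.09 in SUZ12-/- H1, 0.13 in WT H1, 0.13 in EZH1-/- H1, 0.25 in EED-/- H1 and 0.36 in EZH2-/- H1. GATA2 rose by 4.13 ± 0.40 (SE, adjusted p = 1.31e-05), 4.40 ± 0.40 (adjusted p = 9.32e-06) and 3.84 ± 0.40 (adjusted p = 3.09e-05) in log2 in the lines without EED, without SUZ12 and without both catalytic subunits, in that order. GATA1, which follows GATA2 in the red cell line, was listed at 0 in 8 of the 12 samples and did not exceed 0.40 TPM, the value of 1 sample of EZH2-/- H1.

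Of the ETS factors, FLI1 and ERG rose and ETV2 did not. FLI1 was at 0.17 and 0.16 TPM in WT H1, 0.27 and 0.12 TPM in EZH1-/- H1, and 1.48 and 0.56 TPM in EZH2-/- H1 cells. It was at 29.1 and 24.6 TPM in EED-/- H1, 15.3 and 17.7 TPM in SUZ12-/- H1, and 27.7 and 11.5 TPM in EZH2-/-/EZH1-/- H1 cells. No retaining sample came near the PRC2-null samples. FLI1 rose by 4.58 ± 0.38 (SE, adjusted p = 5.01e-06), 3.91 ± 0.38 (adjusted p = 1.54e-05) and 4.02 ± 0.38 (adjusted p = 1.78e-05) in log2 in the lines without EED, without SUZ12 and without both catalytic subunits, in that order.

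ERG, a close relative of FLI1, was at 3.39 and 2.27 TPM in WT H1, 0.90 and 2.03 TPM in EZH1-/- H1, and 1.58 and 1.01 TPM in EZH2-/- H1 cells. It was at 37.4 and 19.9 TPM in EED-/- H1, 18.3 and 17.1 TPM in SUZ12-/- H1, and 11.2 and 6.88 TPM in EZH2-/-/EZH1-/- H1 cells. The samples did not overlap, but the distance was smallest in EZH2-/-/EZH1-/- H1. ERG rose by 2.90 ± 0.38 (SE, adjusted p = 0.000105) in log2 in EED-/- H1 and by 2.30 ± 0.38 (adjusted p = 0.00054) in SUZ12-/- H1 cells. In the double knockout EZH2-/-/EZH1-/- H1 ERG had a log2 fold change of 1.37 ± 0.38 and an adjusted p of 0.0129, which missed both thresholds. Without the second sample of that line, 6 rather than 5 factors passed there. ERG in EZH2-/-/EZH1-/- H1 differed from EED-/- H1 by -1.53 ± 0.38 in log2 (adjusted p = 0.0844).

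ETV2 was at 1.51 and 1.83 TPM in WT H1, 1.36 TPM in both samples of EZH1-/- H1, and 2.87 and 1.11 TPM in EZH2-/- H1 cells. It was at 0.61 and 1.1 TPM in EED-/- H1, 2.44 and 4.30 TPM in SUZ12-/- H1, and 0.94 and 0.77 TPM in EZH2-/-/EZH1-/- H1 cells. All 4 samples of EED-/- H1 and EZH2-/-/EZH1-/- H1 lay below the 6 retaining samples, but only by 1.1 against 1.11 TPM at the closest. With SUZ12-/- H1 left out, 2936 of the 19100 genes tested lay lower in this way. SUZ12-/- H1 held the highest ETV2 value of the 12 samples. The log2 fold changes against WT H1 were -0.54 ± 0.34 (SE, adjusted p = 0.206), 0.68 ± 0.34 (adjusted p = 0.121) and -0.52 ± 0.34 (adjusted p = 0.23). ETV2 in SUZ12-/- H1 differed from EED-/- H1 by 1.21 ± 0.34 in log2 (adjusted p = 0.0283) and from EZH2-/-/EZH1-/- H1 by 1.2 ± 0.34 (adjusted p = 0.037), neither of which passed the thresholds.

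The repressors GFI1 and GFI1B were too low to be tested. GFI1 was at 0.77 and 0.56 TPM in EED-/- H1, 0.41 and 0.53 TPM in SUZ12-/- H1, and 0.89 and 0.68 TPM in EZH2-/-/EZH1-/- H1 cells, and between 0 and 0.21 TPM in the retaining samples. GFI1B was listed at 0 in the 6 retaining samples and in 3 of the PRC2-null samples, at 0.11 TPM in the second sample of EED-/- H1, and at 0.25 and 0.56 TPM in SUZ12-/- H1. Levels of this size do not bear a fold change.

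A gene was counted as changed when it passed a false discovery rate of 1%, adjusted over all 19100 genes by Benjamini-Hochberg, and differed by 3-fold or more. Of the 7 factors tested, 6 rose in EED-/- H1 cells, beside 16.2% of all genes that rose there. In SUZ12-/- H1 cells 6 rose, beside 14.5% of all genes, and in EZH2-/-/EZH1-/- H1 cells 5 rose, beside 11.6%. With the 3 PRC2-null lines averaged, 6 rose, beside 13.6%. None of the 7 fell in any of these comparisons. The 3 lines were compared with the same WT H1 samples. The 7 factors belong to a list that was chosen with earlier results of these data known. In the average the median log2 fold change of the 7 factors was 3.6, and that of all genes was 0.28. Scaling by median ratios in place of TPM moved the median of all genes in the average to 0.10 and the share of called genes that were higher in EED-/- H1 from 72.7% to 58.0%, and called the same number of factors in each line. In EZH1-/- H1 cells none of the 7 factors was called, beside 0.0576% of all genes called higher, and in EZH2-/- H1 cells none was called, beside 0% of all genes. At an unadjusted limma p under 0.05 the count was also 0 in both, beside 16% of all genes in EZH1-/- H1 and 5.81% in EZH2-/- H1. The largest difference in these 2 lines was that of FLI1 in EZH2-/- H1, 0.76 ± 0.38 in log2 (adjusted p = 0.904).

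**Figure D2:**
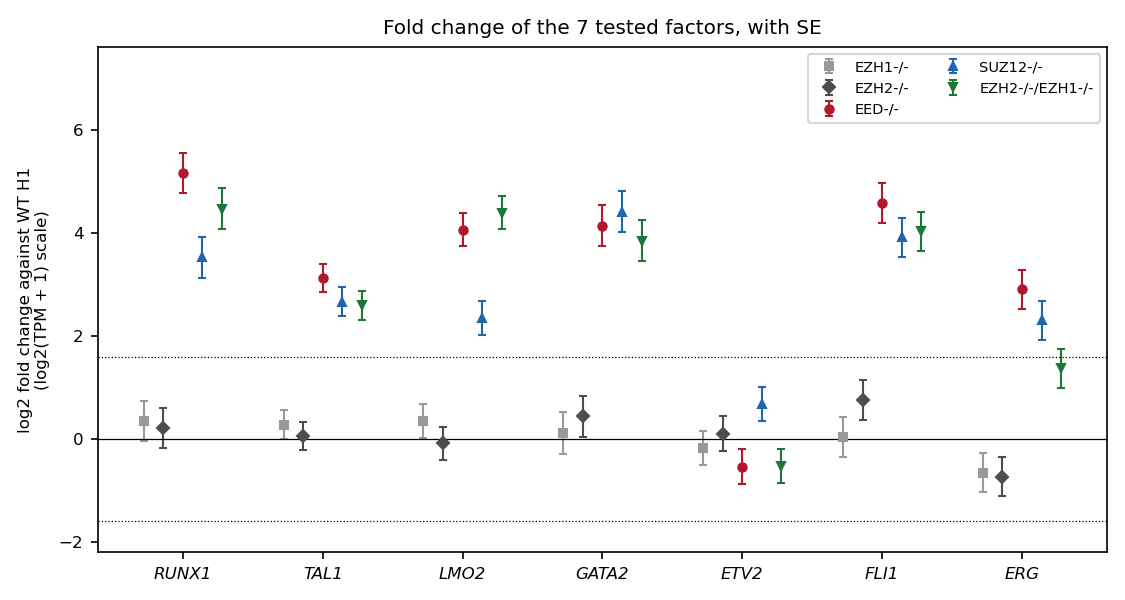
Log2 fold change against WT H1 on the log2(TPM + 1) scale for the 7 factors tested, with bars for the SE from limma, for EZH1-/- H1, EZH2-/- H1 and the 3 PRC2-null lines. Dotted lines mark a 3-fold change. RUNX1, TAL1, LMO2, GATA2 and FLI1 lie above the upper dotted line in each PRC2-null line, ERG in EED-/- H1 and SUZ12-/- H1, and ETV2 in none.

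Between PRC2-null lines, LMO2 was the only one of the 7 factors that passed the thresholds. The count was 1 for SUZ12-/- H1 against EED-/- H1, where 6.12% of all genes were called in either direction, and 1 for SUZ12-/- H1 against EZH2-/-/EZH1-/- H1, where 4.46% were. For EZH2-/-/EZH1-/- H1 against EED-/- H1 it was 0, beside 0.089% of all genes, with 1 factor, ERG, at an unadjusted limma p under 0.05, beside 20.1% of all genes. These calls changed when single libraries were left out. For SUZ12-/- H1 against EED-/- H1 the count was 0 without any 1 of the 4 samples of those lines and 2 without either sample of EZH2-/-/EZH1-/- H1. For SUZ12-/- H1 against EZH2-/-/EZH1-/- H1 it was 0 without either sample of SUZ12-/- H1 or without the second of EZH2-/-/EZH1-/- H1. Median-ratio scaling moved the share of called genes that were higher in SUZ12-/- H1 than in EED-/- H1 from 57.8% to 70.0% and left no factor called there.

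After DOX withdrawal from H1-EED-/-/EED-OE cells the factors reached high levels on different days. TAL1, GATA2, LMO2, ETV2 and FLI1 were above their level with DOX on each day from day 8. LMO2 was above 20 TPM from day 20 on, GATA2 on days 20 and 24, FLI1 and ERG from day 24, and RUNX1 on day 28. There was 1 sample a day, so single days had no test, and the following are values of single samples. RUNX1 was at 0.42 TPM with DOX and at 0.21, 1.01, 0.57, 5.54, 1.62 and 30.7 TPM on days 8, 12, 16, 20, 24 and 28. TAL1 was at 0.05 TPM with DOX and at 2.36, 3.86, 2.11, 3.17, 17.9 and 8.38 TPM on the same days. RUNX1 was thus highest on the last day, with a lower value on day 24 than on day 20, whereas TAL1 was highest on day 24.

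LMO2 was at 2.59 TPM with DOX and at 4.34, 3.40, 2.89, 23.7, 56.7 and 29.7 TPM on the 6 days. GATA2 was at 0.13 TPM with DOX and at 1.91, 2.98, 1.17, 20.7, 64.5 and 15.1 TPM. Both stayed low up to day 16, were highest on day 24 and were lower on day 28. FLI1 was at 0.68 TPM with DOX and at 1.63, 3.78, 2.52, 5.10, 93.7 and 41.1 TPM. ERG was at 2.10 TPM with DOX and at 1.43, 1.32, 0.61, 0.29, 22.7 and 24.6 TPM. FLI1 had the highest value of any of the 10 factors in any of the 19 samples, on day 24, and ERG had its lowest value in the series on day 20, the sample before its high values.

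ETV2 was at 0.69 TPM with DOX and at 3.26, 2.37, 2.35, 5.07, 4.25 and 1.68 TPM on the 6 days. Its highest value in the series came on day 20, and ETV2 was still at 4.25 TPM on day 24, when FLI1 was highest. On days 12, 16 and 28 it was within the range of the retaining lines, 1.11 to 2.87 TPM. With DOX it was below that range, and on days 8, 20 and 24 above it. GFI1 was at 0.08 TPM with DOX, listed at 0 up to day 16, and at 0.20, 0.72 and 1.29 TPM on days 20, 24 and 28. GATA1 was listed at 0 except for 0.22 TPM on day 8, and GFI1B was at 0.22 TPM on day 8, 0.16 TPM on day 12 and listed at 0 otherwise. GATA1 and GFI1B were thus listed at 0 on the days on which TAL1, LMO2, GATA2 and RUNX1 were highest.

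**Figure D3:**
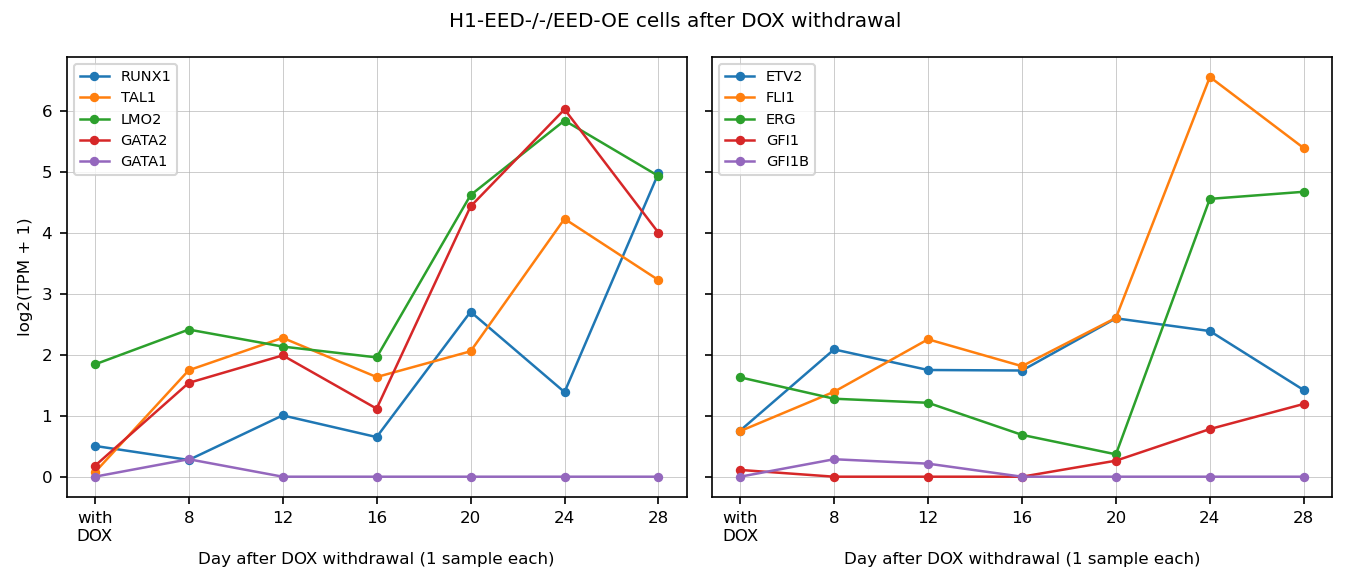
Level of the 10 factors as log2(TPM + 1) in H1-EED-/-/EED-OE cells with DOX and on days 8 to 28 after its withdrawal, 1 sample each. TAL1, LMO2, GATA2 and FLI1 are highest on day 24, ETV2 on day 20, and RUNX1, ERG and GFI1 on day 28. GATA1 and GFI1B stay near 0.

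Against the sample with DOX, 1 of the 7 factors that passed the filter of the time course (TAL1) was at least 3-fold higher on the log2(TPM + 1) scale on day 8, beside 2.93% of 17245 genes. On day 12 it was 2 (TAL1 and GATA2), beside 3.08%, and on day 16 it was 0, beside 4.13%. With a pseudocount of 0.1 in place of 1 the counts on these 3 days were 3, 4 and 4, beside 9.05%, 9.52% and 10.3% of all genes. On day 20 it was 6, all but ERG, beside 9.62% of all genes. On day 24 it was 6, all but RUNX1, beside 13.9%, and on day 28 it was 6, all but ETV2, beside 18.8%. The 6 comparisons share the sample with DOX. Against the mean of WT H1 the counts were 5 on day 20, beside 7.34%, and 5 on day 24, beside 11.3%, without ETV2 on either day. From day 20 to day 24, 4 of the 7 were higher by at least 3-fold, beside 4.96% of all genes, and from day 24 to day 28 only 2 of the 7 were higher, beside 60% of all genes. As a slope over the 6 days, fitted by limma with 4 residual degrees of freedom, none of the 7 was called, beside 1.35% of all genes called higher. At an unadjusted p under 0.05 it was 6 of 7, beside 36.8% of all genes. The fitted log2 change from day 8 to day 28 was 4.82 ± 1.14 (SE, adjusted p = 0.0291) for FLI1, 3.97 ± 1.26 (adjusted p = 0.0638) for GATA2, 3.82 ± 1.07 (adjusted p = 0.0459) for RUNX1 and 3.77 ± 0.94 (adjusted p = 0.0333) for LMO2. It was 3.82 ± 1.37 (adjusted p = 0.0879) for ERG, 1.96 ± 0.77 (adjusted p = 0.11) for TAL1 and -0.08 ± 0.59 (adjusted p = 0.934) for ETV2. Single days set part of these slopes, since that of RUNX1 was 1.97 without day 28 and that of TAL1 was 1.28 without day 24. On day 28 RUNX1, TAL1, LMO2, GATA2, ETV2 and ERG lay within their ranges over the 6 PRC2-null samples, and GATA1 and GFI1B were listed at 0, the lower end of their ranges. FLI1, at 41.1 TPM against 11.5 to 29.1 TPM, and GFI1, at 1.29 TPM against 0.41 to 0.89 TPM, were above their ranges.

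Genes that work with the factors or are related to them were counted from lists, each to be read beside the 13.6% of all genes that rose in the average of the PRC2-null lines. These lists and the marker lists below were also chosen with earlier results of these data known. Of 12 partners of the factors, 12 were tested and 1 rose in the average of the PRC2-null lines, LYL1, a close relative of TAL1, with 6.92 to 13.3 TPM in the PRC2-null and 0.30 to 1.30 TPM in the retaining samples, higher in log2 by 2.51 ± 0.24 (SE, adjusted p = 8.65e-06). The most abundant partners were TCF3, the helix-loop-helix partner of TAL1, at 102 to 175 TPM in the PRC2-null and 164 to 220 TPM in the retaining samples, SSBP3, at 78.2 to 145 and 97.3 to 158 TPM, and KDM1A, a histone demethylase, at 81.1 to 129 and 189 to 320 TPM. None of these 3 passed both thresholds. Of 15 relatives from the RUNX, TAL, LMO, GATA and ETS families, 14 were tested and 7 rose, with a median log2 fold change of 1.56 beside 0.28 over all genes. GATA4, GATA6 and GATA3, factors of heart, endoderm and trophoblast, rose by 6.27 ± 0.22, 4.94 ± 0.28 and 4.33 ± 0.24 (SE) in log2, and ELK3 by 2.75 ± 0.27. GATA4, at 68.7 to 124 TPM, was above GATA2 in each PRC2-null sample. LMO4, at 113 to 147 TPM, and ETS2, at 29.7 to 88.5 TPM, were the other relatives named for their level and did not pass both thresholds.

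Of 10 other transcription factors of blood, 7 were tested and 5 rose in the average, beside 13.6% of all genes. HHEX, which also acts in endoderm and endothelium, rose by 3.96 ± 0.25 (SE), MEIS1, a partner of HOX proteins, by 3.95 ± 0.24, HLX by 3.64 ± 0.25 and CEBPA, a factor of liver and myeloid cells, by 2.05 ± 0.25 in log2. In EED-/- H1 cells 3 of the 7 rose against WT H1 and 1 fell, whereas none fell in SUZ12-/- H1 or EZH2-/-/EZH1-/- H1. The factor that fell was MYB, with a log2 fold change of -1.77 ± 0.41 (SE, limma, adjusted p = 0.00433). MYB was at 0.33 to 1.40 TPM in the PRC2-null and 0.85 to 4.84 TPM in the retaining samples. MYB and the 3 that were too low to be tested, SPI1, KLF1 and IKZF1, were named after their values were seen. SPI1 lay between 0 and 1.21 TPM in the 12 samples, KLF1 between 0 and 0.76 TPM, and IKZF1 between 0.27 and 1.25 TPM.

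Of 22 markers of mature blood cells, 11 were tested and 2 rose in the average, a share near the 13.6% of all genes. These were LCP1, an actin-bundling protein, higher by 2.77 ± 0.29 (SE), and CSF1R, the receptor of macrophage growth factor, higher by 2.38 ± 0.29 in log2. EPOR, the erythropoietin receptor, was at 5.88 to 21.9 TPM in the PRC2-null and 5.22 to 14.5 TPM in the retaining samples, and did not pass the test. The summed level of the 22 was 41.8 to 98.1 TPM in the PRC2-null and 26.9 to 54.3 TPM in the retaining samples, so the groups overlapped. HBB was listed at 0 in all 19 samples, whereas HBA1, another globin gene, was at 0 to 3.77 TPM in the 12 line samples. With DOX HBA1 was at 0.88 TPM, and on days 8, 12, 16, 20, 24 and 28 at 5.59, 8.79, 7.79, 10.2, 0.63 and 0.79 TPM. HBB and HBA1 were named after their values were seen. Of the 22 markers, 9 were below 1 TPM in each PRC2-null sample. Of all 33382 genes, 16184 to 17043 reached 1 TPM in a PRC2-null sample. PTPRC (CD45), which marks nearly all white blood cells, was at 0.06 to 1.46 TPM in the PRC2-null samples, and was chosen for mention after its values were seen.

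Of 19 endothelial markers, all were tested and 15 rose, beside 13.6% of all genes, with a median log2 fold change of 3.04 beside 0.28 over all genes. PLVAP rose by 6.27 ± 0.36 (SE), ESAM by 5.51 ± 0.19, CD34 by 5.45 ± 0.30 and PECAM1 by 5.14 ± 0.32 in log2. The authors used CD34 to mark hematopoietic progenitor cells, so not every gene of this list is particular to endothelium. FLT1 was at 93.5 to 311 TPM in the PRC2-null and 26.4 to 47.4 TPM in the retaining samples and EGFL7 at 110 to 152 and 49.2 to 79.4 TPM. EGFL7 rose by 1.38 ± 0.13 in log2, which missed the 3-fold threshold. KDR, which is also in the mesoderm list, overlapped, at 14.7 to 135 and 31.6 to 133 TPM. Its log2 fold change was 0.06 ± 0.49 and it was not called. The summed level of the 19 was 489 to 1595 TPM in the PRC2-null and 141 to 281 TPM in the retaining samples. In each PRC2-null sample 16 of the 19 lay above all retaining samples, beside 24.2% of all genes. After DOX withdrawal the sum went from 167 TPM with DOX to 433 TPM on day 20, 2844 TPM on day 24 and 1786 TPM on day 28, with its highest value on the same day as those of TAL1, LMO2, GATA2 and FLI1. No endothelial marker of the list was below 1 TPM in all PRC2-null samples. The part of endothelial markers in the levels of the factors was not tested.

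Markers of other cell types moved in the same samples. Counts of genes that rose are to be read beside the 13.6% of all genes that rose in the average. Some genes are in more than 1 list: SOX17 (endothelial, endoderm), KDR (endothelial, mesoderm), HAND1 (mesoderm, trophoblast), GATA3 (relatives, trophoblast), and GATA4 and GATA6 (relatives, endoderm). In the average of the PRC2-null lines all 11 endoderm markers rose (TTR by 10.7 ± 0.33 and APOA1 by 9.84 ± 0.23 in log2, SE), with a sum of 1528 to 20427 TPM against 5.42 to 15.6 TPM. Of 12 genes of mesoderm and its inducing signals, 9 rose (TBX3 by 5.82 ± 0.27 and BMP4 by 5.32 ± 0.40), with a sum of 250 to 712 TPM against 51.2 to 143 TPM. Of 14 markers of trophoblast and amnion 12 were tested, 9 rose (ISL1 by 5.11 ± 0.31) and 1 fell (GABRP by 3.08 ± 0.67), and their sums of 299 to 584 and 190 to 470 TPM overlapped. Of 6 smooth muscle genes 4 rose (ACTA2 by 7.73 ± 0.15), with a sum of 1955 to 7728 TPM against 345 to 1106 TPM. Of 6 neural genes 5 were tested and 1 rose (PAX6 by 4.0 ± 0.32), and their sums of 61.2 to 455 and 144 to 341 TPM overlapped. All 8 pluripotency genes fell, beside 1023 of the 19100 genes tested. The part of these cell types in the levels of the factors was not tested.

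The genes most like each factor over the 19 samples were taken from 14711 genes that reached 5 TPM in at least 2 samples, by Pearson's r of log2(TPM + 1), and are a description, since the samples share lines and the same PRC2-null contrast. For TAL1 they were ELF4 (r = 0.971), ELFN1 and LGI1 (0.962 each), and for FLI1 they were BVES (0.974), ELF4 (0.969) and BGN (0.968). For ERG they were TIE1 (0.979), ZNF469 (0.968) and NOSTRIN (0.961), of which TIE1 is an endothelial receptor. For GATA2 they were SP6 (0.982), MEIS2 and PCDH17 (0.979 each), for LMO2 SAT1 and ANKRD1 (0.976 each) and DNAJC1 (0.972), and for RUNX1 RP5-1148A21.3 and PPAPDC1A (0.976 each) and TDRD7 (0.968). Among the 15 pairs of the 6 factors that reached 5 TPM, r was highest for TAL1 with FLI1 (0.959), GATA2 with FLI1 (0.950) and TAL1 with GATA2 (0.940), and lowest for RUNX1 with TAL1 (0.731).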

How the data were processed

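Libraries were made with a TruSeq RNA kit, and the authors per the submitters' processing notes used RSEM and Bowtie (builds GRCh38, hg38 and hg19 are named) and deposited TPM per gene, which sum to a constant total in each sample. Counts and depth are unknown, so precision rests on replicates, and limma 3.58.1 (R 4.3.3) replaced the edgeR test that the authors describe, with their thresholds (FDR 1%, 3-fold). Genes at 1 TPM or more in at least 2 of 12 line samples (or 2 of 7 time course samples) were fitted as log2(TPM + 1), which understates changes of low genes. The fits had 1 mean a line or a slope on day, with the trend and robust options. Benjamini-Hochberg adjustment ran over all genes tested. The fits were tested on simulated data. Replicate numbers follow accession order. Members and lists were chosen with earlier results of these data known. Of the lists, counts, the 4 largest called changes in the PRC2-null average and the 3 highest levels were eligible for naming. Genes were joined by Ensembl identifier, since 33 symbols had become dates. Alternatives were another pseudocount, no filter, plain eBayes, FDR 5%, treat, a replicate block, median-ratio scaling, 4-sample fits, another reference, and leaving out samples, lines or days. Python 3.11.15, numpy 2.4.6, pandas 2.3.3 and matplotlib 3.10.9 were used.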

Additional observations from a re-analysis of the deposited data

Results flagged for a closer look

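LMO2 differed between the PRC2-null lines. Its log2 fold change in SUZ12-/- H1 was -1.71 against EED-/- H1 and -2.04 against EZH2-/-/EZH1-/- H1 cells, by the limma contrast of the lines. Both calls were lost in some of the fits that left out 1 library, as given above.

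In 3 of the 19 sets of 6 samples examined, 1 sample stood apart from the other 5 by Dixon's gap, of which chance gives about 1 in 20. These were RUNX1 at 1.12 TPM in the second sample of EZH1-/- H1, TAL1 at 0.46 TPM in the first sample of EZH1-/- H1, and FLI1 at 1.48 TPM in the first sample of EZH2-/- H1. Each set joins 3 lines, and each of these values is below the lowest PRC2-null value of its gene.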

How the results depend on the processing

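Counts of factors called in each line against WT H1, in the average of the PRC2-null lines, without overlap, and past 3-fold on day 28 stayed within 1.5 times the value above under each alternative run. With a pseudocount of 0.1 in place of 1, log2 fold changes in the average grew from 2.79 to 5.54 for TAL1, from 4.13 to 6.55 for GATA2, from 4.17 to 6.24 for FLI1 and from 4.38 to 6.36 for RUNX1. The counts on days 8, 12 and 16 moved as given above, and against the mean of WT H1 they were 1, 3 and 2. The counts between PRC2-null lines moved. For SUZ12-/- H1 against EED-/- H1 the count of 1 became 0 with a pseudocount of 0.1, 0 with median-ratio scaling, 3 at an FDR of 5% without a fold cutoff, and 0 to 2 when 1 sample was left out. For SUZ12-/- H1 against EZH2-/-/EZH1-/- H1 the count of 1 became 0 with a pseudocount of 0.1, 2 at an FDR of 5% without a fold cutoff, and 0 to 1 when 1 sample was left out. The slope over days called 3 factors at an FDR of 5% without a fold cutoff (RUNX1, LMO2 and FLI1) against 0. The cause was not tested. ETV2 changed sign over the days, from -0.08 to 0.65 with the DOX sample as day 0 and to 0.73 without day 28 (-0.33 to 0.73 when 1 day was left out), and it passed no threshold. The replicate block, for which the same-numbered samples of 15 pairs of lines deviated together with r from -0.12 to 0.22 (mean 0.00), gave 6 factors in the average, 6 each in the EED and SUZ12 knockouts and 5 in EZH2-/-/EZH1-/- H1, and changed no call count. The numbers follow accession order and pair nothing. With 2 samples a line and no depth, levels below 1 TPM could not be tested.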
